A study of Mus musculus with 36 samples.

Results

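The regions described here are 1780 stretches of mouse hippocampal chromatin that carried the marks of an active enhancer in every group of the study. They were found by merging the peaks of the 4 H3K27ac lists into 224803 regions on chromosomes 1 to 19 and X. A region was kept where all 4 lists had an H3K27ac peak with a deposited -log10 p of at least 5, which held for 43257 regions, called common regions here. It also had to overlap, by 1 bp or more, an H3K4me1 peak of at least 5 in all 4 H3K4me1 lists, and to overlap no peak of the 4 H3K4me3 lists, however weak. The 1780 regions that met every condition were 4.11% of the common regions. H3K27ac, H3K4me1 and H3K4me3 thus chose them, and values of these 3 marks are given as a description with no test. "Distal" means only that no H3K4me3 peak touched the region, "constant" only that the peaks were called in every list, and whether the regions act as enhancers was not measured.

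The tissue was the hippocampus of 3-month-old female mice. CKp25 mice were bitransgenic CK-p25 animals taken 2 or 6 weeks after p25 was induced, and CK mice were littermate controls taken at the same times. The labels do not say which transgene the CK animals carried, nor whether the age is that at induction or at collection. Each of 7 histone marks gave 1 peak list per group, 28 in all, called against the whole cell extract of the group, and RNA gave 3 libraries per group, which the labels list by number under 1 RNA sample each. Whether a list came from 1 animal or from pooled animals is not stated. With 1 list per mark and group, no test of CKp25 against CK could be made from the regions of a list.

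In CK-p25 mice, p25, a truncated and overactive activator of the kinase Cdk5, is switched on in forebrain neurons by a CaMKII-driven transgene, after which neurons are lost and glia respond. Enhancers are stretches of regulatory DNA that raise transcription of genes at a distance. Their flanking nucleosomes carry H3K4me1, laid down by the Kmt2c and Kmt2d methyltransferases, and when active also H3K27ac, laid down by Ep300 and Crebbp, while H3K4me3 marks promoters. H3K36me3 covers the bodies of transcribed genes and H4K20me1 is often found over them too. H3K27me3 is the mark of Polycomb silencing, and H3K9me3 that of constitutive heterochromatin.

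Read depth of the peak lists is unknown, since they hold no counts. The H3K27ac lists held 142710 to 163697 peaks and the H3K4me1 lists 205779 to 221845. RNA libraries held 5029996 to 6450140 reads counted in genes. RNA of cell type markers differed between the genotypes. Of 4 excitatory neuron markers, 3 fell at 2 weeks and 4 at 6 weeks by edgeR's quasi-likelihood test at an adjusted p under 0.05, and their summed level in CPM, the count scaled to a common library size, was 1064 to 1856 in CKp25 libraries against 2169 to 2642 in CK libraries. All 4 microglial markers rose at both times, with sums of 332 to 518 CPM in CKp25 and 107 to 136 CPM in CK. All 3 astrocyte markers rose at both times, with sums of 2692 to 5094 CPM in CKp25 and 793 to 864 CPM in CK. Among these 3, Gfap rose most, by 3.10 and 3.69 log2 at 2 and 6 weeks, and Slc1a3 least, by 0.33 and 0.75. The 3 oligodendrocyte and 3 endothelial markers passed at 6 weeks alone, all of them higher in CKp25. No marker of inhibitory neurons (3), choroid plexus (3) or red blood cells (2) passed at either time, though the choroid plexus sum ran from 13.4 to 1938 CPM among CKp25 libraries and from 16.7 to 2359 CPM among CK libraries. In bulk RNA a change in cell numbers and a change in RNA per cell cannot be told apart. The part of these marker changes in the chromatin values of the enhancers was not tested.

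The constant enhancers had a median width of 1523.5 bp (347 to 7882 bp). The median was 1650 bp for the other 41477 common regions, 1161 bp for the 1926 common H3K4me3-free regions with H3K4me1 in under 4 lists and 489 bp for the 56779 H3K4me3-free regions with an H3K27ac peak in only 1 to 3 lists. Although free of H3K4me3, most were not far from it. The nearest H3K4me3 peak of any list lay at a median of 1646 bp, within 1 kb for 702 regions (39.4%), within 5 kb for 1375 (77.2%) and beyond 50 kb for 2. The 4 H3K27ac summits of a region, the points of highest signal in the 4 lists, were spread over a median of 559 bp, against 316 bp in the other common regions.

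They were found on every autosome and made up 2.83% (chromosome 10) to 6.34% (chromosome 12) of the common regions there, with the highest number on chromosome 2 (158). None lay on the X chromosome, which held 578 common regions. Of these 578, 42 (7.27%) had H3K4me1 in all 4 lists, against 72.003% on the autosomes, and 5 (0.865%) had no H3K4me3 peak, against 8.67% on the autosomes.

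Most stood alone. At a stitching distance of the kind used to define super-enhancers, 1343 (75.4%) had no neighbour among themselves, 308 formed pairs and 90 formed groups of 3. The largest group had 6 members over 39714 bp at chr8:96457828-96497541 (mm9), the next 5 members over 33866 bp at chr9:45284399-45318264, and the third was one of 7 groups of 4, over 9677 bp at chr15:86119769-86129445. The 6 members on chromosome 8 all overlapped H3K36me3 and H4K20me1 peaks, in all 4 lists for 5 of them and in 3 lists for the member at chr8:96458859-96459248. That member also had the widest spread of H3K27ac percentiles in CKp25 within the group, 50.8 at 2 weeks and 22.3 at 6 weeks, against 13.9 and 4.35 in CK at 2 and 6 weeks. None of the 15 members of the 3 groups overlapped an H3K27me3 or H3K9me3 peak in any list. Of all the constant enhancers, 96.5% had no H3K27me3 and 99.2% no H3K9me3 in any list.

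The strength of a region in a list was taken as the highest deposited fold enrichment of its H3K27ac peaks over the whole cell extract, and was turned into a percentile among the 43257 common regions of that list, 0 the weakest and 100 the strongest. The constant enhancers were weak in every group. Their median percentile was 20.4 in CKp25 at 2 weeks and 20.5 in CKp25 at 6 weeks, against 22.2 in CK at both times. The other common regions had medians of 51.8, 51.2, 51.8 and 51.7 in the same 4 lists. In fold enrichment over the extract the constant enhancers had medians of 3.39 and 3.21 in CKp25 and 3.33 and 3.08 in CK, and the highest value of any of them was 7.20. In each list 0 of the 1780 were in the top 10% of the ranks, where 10.2 to 10.4% of the other common regions lay. By H3K4me1, ranked among the 30772 common regions with that mark in all lists, their median percentiles were 27.6 and 24.8 in CKp25 and 26.1 and 28.5 in CK. Both marks took part in choosing the regions, so these levels describe the choice.

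**Figure D1:**
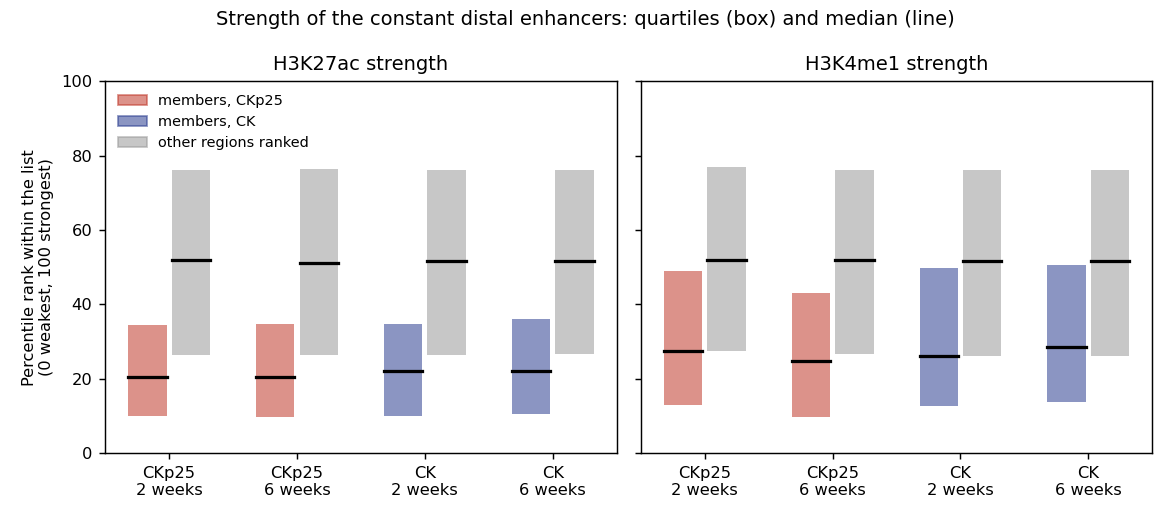
Percentile rank of strength (y axis, 0 weakest to 100 strongest) of the 1780 constant distal enhancers and of the other regions ranked, in each list of H3K27ac (left) and H3K4me1 (right); boxes span the quartiles and lines are medians over regions. In all 8 lists the median of the enhancers, 20.4 to 28.5, lies below that of the other regions, 51.2 to 52.0.

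The strongest of them by the median percentile over the 4 H3K27ac lists were still middling. The region at chr2:30569044-30569905 had percentiles of 73.1 and 68.95 in CKp25 at 2 and 6 weeks and 59.9 and 65.8 in CK. The region at chr8:129348210-129348803 had 74.3 and 85.5 in CKp25 and 44.5 and 58.6 in CK, so that its CKp25 lists stood above its CK lists by at least 15.6 points. That at chr7:139890157-139894816, the widest of the 6 at 4660 bp, had 57.9 and 76.3 in CKp25 and 66.7 and 65.5 in CK. These 3 overlapped none of the 4 other marks in any list. The region at chr14:64965607-64970050 was low in 1 list, with 24.2 and 62.4 in CKp25 against 70.8 and 69.6 in CK, and carried H3K36me3 and H4K20me1 peaks in CKp25 at 6 weeks alone. The remaining pair, chr15:88684551-88685004 and chr2:150600498-150601604, had 53.4 to 70.4 in all 4 lists.

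The order of the enhancers by strength was only loosely shared between lists. Across the 1780 regions, Spearman's correlation between pairs of H3K27ac lists was 0.227 to 0.324, against 0.781 to 0.834 across the other common regions. For H3K4me1 it was 0.206 to 0.3002, against 0.447 to 0.5005. These are descriptions over regions of the same lists, and the enhancers spanned a narrower range of H3K27ac fold enrichment than the other regions (2.21 to 7.20 against 1.58 to 21.1). The closest pair of H3K27ac lists was CK at 2 and 6 weeks (0.324) and the least close CKp25 at 6 weeks with CK at 2 weeks (0.227). The deposited fold values were coarse at this level. They moved in steps of 0.110 to 0.127 in the 4 H3K27ac lists, the median enhancer stood 26.7 to 28.001 steps above 0, and 40.4 to 49.4% of the enhancers shared the 10 commonest values of a list. The 10 percentile points from percentile 20 to 30 corresponded to 2.25 to 2.72 steps for H3K27ac and to 1.24 to 2.00 steps for H3K4me1.

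The question put to these regions was whether enhancers present in all groups changed in strength with p25. A region was called higher in CKp25 where both CKp25 lists ranked it at least 10 points above both CK lists, and lower where both ranked it at least 10 points below. By H3K27ac, 94 of the 1780 enhancers (5.28%) were called higher, against a background of 5.75% of all common regions. Another 144 (8.09%) were called lower, against a background of 5.66%. The share called higher was near the background, and the share called lower was above it. Ranked among the enhancers alone, 190 (10.7%) were called higher and 197 (11.1%) lower, though such ranks bear on no shift of the whole set. H3K27ac took part in choosing the regions, and the background was mostly of stronger regions, so the excess of lower calls cannot show a fall with p25. Shifts between the times within a genotype also exceeded the background, in both directions, as given below. Where H3K4me1 had to cover at least 50% of a region, 6.59% were called higher and 7.04% lower. The median shift of an enhancer was -1.40 points at 2 weeks and -1.30 at 6 weeks, against 0.00 and -0.12 in the other common regions, and its quartiles among the enhancers at 2 weeks were -14.1 and 11.4 points. With 1 list per group these calls have no replicate check, and in bulk tissue fewer cells that use an enhancer and less acetylation per cell cannot be told apart.

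Shifts of at least 20 points were of similar frequency within a genotype and between genotypes. At 2 weeks 240 enhancers stood at least 20 points higher in CKp25 than in CK (13.5%; background 11.6%) and 291 lower (16.3%; background 11.3%). At 6 weeks 236 stood higher (13.3%; background 13.7%) and 322 lower (18.1%; background 13.6%). Between 6 and 2 weeks within CKp25, 252 stood higher at 6 weeks (14.2%; background 11.1%) and 227 lower (12.8%; background 10.8%). Within CK, 269 stood higher at 6 weeks (15.1%; background 11.6%) and 262 lower (14.7%; background 11.8%). The difference between the genotype shifts and the time shifts was not tested, as each comparison is 1 list against 1 list.

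The shifts at 2 and at 6 weeks, which come from separate lists, had little in common region by region. By at least 20 points, 906 enhancers moved at either time (50.9%, against 41.0% of the other common regions). Of the 1780, 39 were higher in CKp25 at both times (2.19%, against 2.90%), 65 were lower at both (3.65%, against 2.62%) and 79 moved in opposite directions (4.44%, against 3.11%). Across the 1780, Spearman's correlation between the 2 shifts was 0.0846, and it was 0.122 across the other common regions. For H3K4me1, 96 enhancers were higher at both times (5.39%, against 6.52% of the other regions ranked), 142 were lower at both (7.98%, against 6.29%) and 170 moved in opposite directions (9.55%, against 10.9%).

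**Figure D2:**
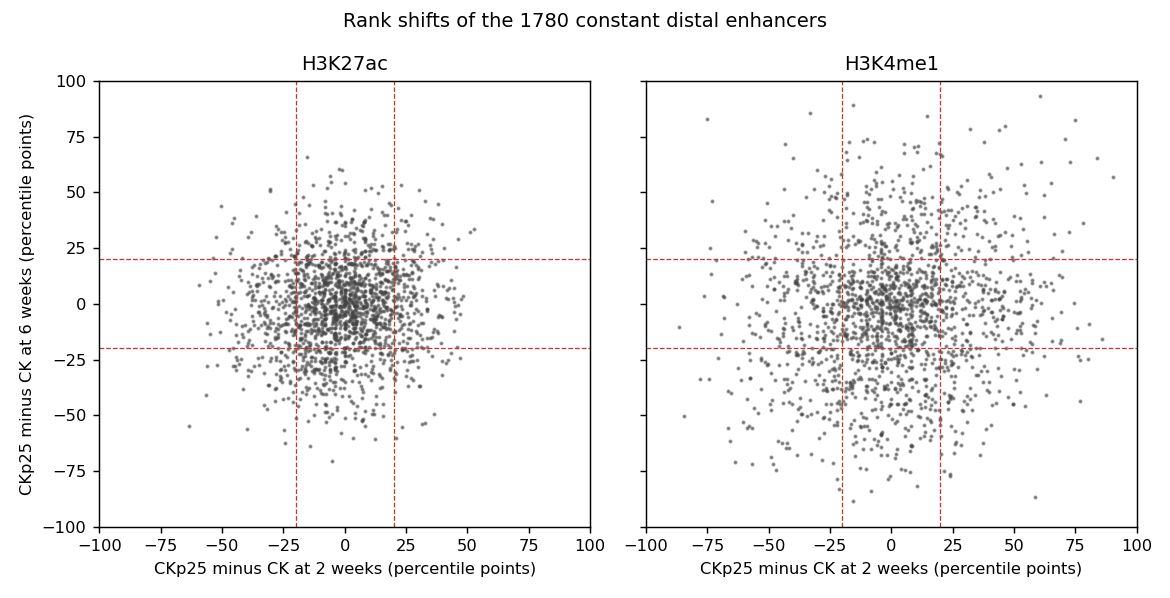
Each point is 1 of the 1780 constant distal enhancers, placed by its change in percentile rank, CKp25 minus CK, at 2 weeks (x axis) and at 6 weeks (y axis), for H3K27ac (left) and H3K4me1 (right); dashed lines mark 20 points. The H3K27ac cloud has little tilt (Spearman's correlation 0.0846), with 39 regions in the upper right corner, 65 in the lower left and 79 in the other 2 corners.

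The widest rises were to middle ranks. The region at chr15:27688662-27690727, 262 bp from an H3K4me3 peak, stood at percentiles 55.7 and 56.2 in CKp25 at 2 and 6 weeks and at 16.2 and 20.4 in CK. In fold over the extract it had 4.70 and 4.44 in CKp25 against 3.17 and 3.04 in CK, and it overlapped H3K36me3 and H4K20me1 in all 4 lists. The region at chr17:75862031-75863582 stood at 41.6 and 43.8 in CKp25 and at 6.77 and 5.37 in CK. The region at chr12:103445037-103446023 stood at 51.9 and 46.4 in CKp25 and at 13.9 and 1.58 in CK. At these 3 regions the CKp25 and CK values did not overlap, which is how they were picked, and those on chromosomes 17 and 12 carried none of the 4 further marks.

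The region at chr16:34966171-34967762, which lay 13089 bp from the nearest H3K4me3 peak, had 48.1 and 45.3 in CKp25 against 1.94 and 16.2 in CK. The region at chr16:90491316-90492924 had 30.7 and 40.8 in CKp25 against 3.57 and 0.944 in CK and overlapped H3K36me3 in all 4 lists without H4K20me1. The region at chr2:33013778-33016881 had 30.7 and 55.4 in CKp25 against 0.283 and 4.35 in CK and overlapped both H3K36me3 and H4K20me1 in all 4 lists. None of the 6 rose in H3K4me1 rank by the same rule, and the chr12 region was called lower by H3K4me1, with 19.4 and 43.0 in CKp25 against 72.5 and 67.1 in CK, as was the region at chr16:34966171-34967762, with 29.8 and 15.9 in CKp25 against 62.1 and 42.9 in CK. The H3K27ac and H3K4me1 lists of a group share the whole cell extract. The H3K27ac -log10 p in CK was 5.48 and 5.45 at chr16:90491316-90492924 and 5.41 and 5.35 at chr2:33013778-33016881. These values lay near the threshold of 5 that a region had to reach in every list.

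The falls were wider. The region at chr11:78849293-78852354, 3062 bp wide, stood at 1.76 and 6.02 in CKp25 at 2 and 6 weeks and at 65.2 and 60.7 in CK, with a gap of -54.7 points. In fold over the extract it had 2.74 and 2.76 in CKp25 against 5.12 and 4.29 in CK. The region at chr15:78923742-78925201 was near the bottom of both CKp25 lists, at 0.0855 and 0.379, against 56.7 and 41.3 in CK, and the region at chr15:75604346-75605190 stood at 18.1 and 7.26 in CKp25 against 57.9 and 63.5 in CK. These 3 overlapped H3K36me3 and H4K20me1 in all 4 lists, as did the region at chr11:87130463-87132121, with 26.5 and 11.7 in CKp25 against 57.9 and 58.6 in CK. At chr11:87130463-87132121 the H3K4me1 percentile was lower too, 14.9 and 14.1 in CKp25 against 44.0 and 34.6 in CK. The H3K27ac -log10 p in CKp25 was 5.49 and 5.54 at chr11:78849293-78852354 and 5.08 and 5.66 at chr15:78923742-78925201. These values lay near the threshold of 5, so a region that fell further could have left the set.

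The region at chr5:113125848-113129912, the widest of the 6 at 4065 bp, stood at 16.4 and 22.3 in CKp25 against 57.9 and 60.7 in CK and carried an H3K27me3 peak in CK at 6 weeks. The region at chr11:108843976-108845392 stood at 3.24 and 9.85 in CKp25 against 41.4 and 40.0 in CK and had none of the 4 further marks.

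**Figure D3:**
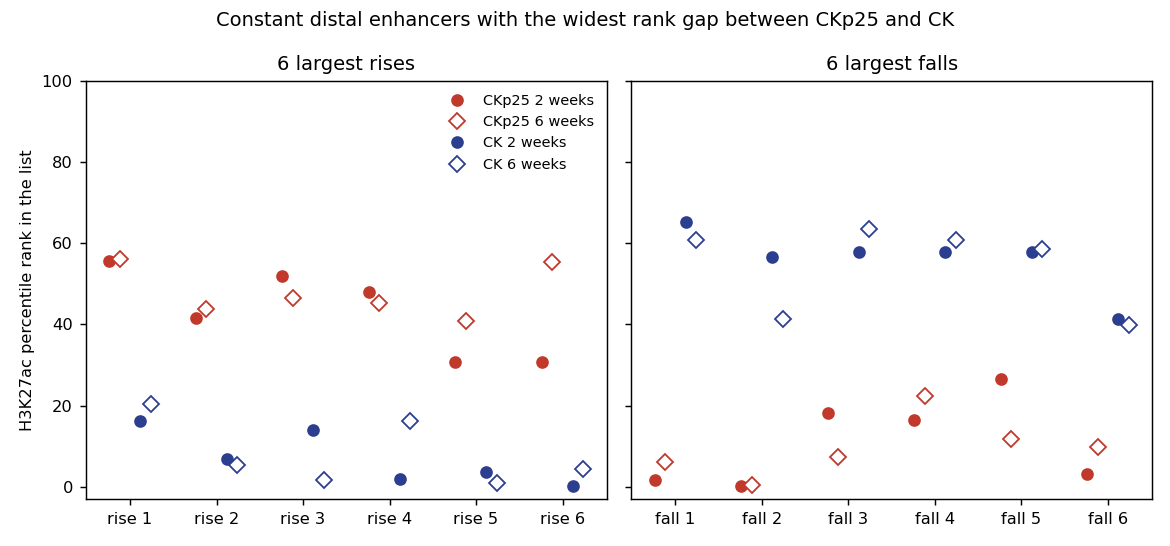
H3K27ac percentile rank (y axis) in the 4 lists for the 6 constant distal enhancers with the widest rise in CKp25 (left) and the 6 with the widest fall (right), in the order of the text by size of gap; CKp25 in red, CK in blue, circles 2 weeks, open diamonds 6 weeks. The groups do not overlap in any of the 12, which were picked for this; CKp25 is at 30.7 to 56.2 in the rises and 0.0855 to 26.5 in the falls.

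By H3K4me1, 140 enhancers (7.87%) were called higher in CKp25, against a background of 8.94%, and 183 (10.3%) lower, against a background of 8.62%. At 6 weeks 340 stood at least 20 points higher in CKp25 than in CK (19.1%, background 24.3%) and 500 stood lower (28.1%, background 24.3%). Their median shift was -2.24 points, against 0.23 in the other regions ranked. At 2 weeks the counts were 408 higher (22.9%, background 22.8%) and 399 lower (22.4%, background 23.0%). The median shift was 0.05 points, against -0.14 in the other regions ranked. Within CKp25, 346 stood at least 20 points higher at 6 than at 2 weeks (19.4%, background 23.0%) and 446 lower (25.1%, background 22.9%). Within CK the counts were 435 higher (24.4%, background 23.0%) and 377 lower (21.2%, background 23.0%). The widest rise was at chr15:88684551-88685004, a 454 bp region that was also among the 6 strongest by H3K27ac. Its H3K4me1 stood at percentiles 86.1 and 90.9 in CKp25 and at 11.4 and 8.21 in CK, while its H3K27ac groups overlapped. The region at chr4:132614623-132615908 stood at 86.1 and 78.0 in CKp25 against 2.31 and 12.52 in CK, and that at chr1:132949271-132949919 at 91.0 and 84.3 in CKp25 against 20.4 and 10.1 in CK. At this last region H3K27ac went the other way, at 8.55 and 2.31 in CKp25 against 38.1 and 21.0 in CK.

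The widest H3K4me1 falls were at chr3:28447167-28448950, with 8.74 and 7.45 in CKp25 against 74.4 and 69.01 in CK, at chr14:71400483-71401040, with 27.6 and 14.1 in CKp25 against 84.2 and 85.9 in CK, and at chr13:49537895-49540981, with 3.81 and 3.42 in CKp25 against 70.1 and 58.9 in CK. The chr13 region was called lower by H3K27ac as well, at 43.6 and 20.5 in CKp25 against 71.96 and 63.9 in CK.

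The other 4 marks did not enter the choice of the regions. By them the constant enhancers stood apart in every list from the other common regions, most of which carry H3K4me3. H3K36me3, the mark of transcribed gene bodies, overlapped 849 of them (47.7%) in CKp25 at 2 weeks and 813 (45.7%) at 6 weeks, and 790 (44.4%) in CK at 2 weeks and 749 (42.1%) at 6 weeks. Among the other common regions the shares were 24.7 and 23.5% in CKp25 and 22.6 and 21.7% in CK. The enhancers were thus higher by 21.8 ± 1.11 percentage points (mean and SD of 4 lists), in 4 of 4 lists. An exact two-sided permutation test over the lists gave p = 0.13, the smallest that 4 lists allow, and 0.15 after Benjamini-Hochberg adjustment over 12 such comparisons. They were also higher by 18.2 ± 1.51 points than the 1926 common H3K4me3-free regions with H3K4me1 in under 4 lists, and by 16.3 ± 0.973 points than the H3K4me3-free regions with H3K27ac in 1 to 3 lists, in 4 of 4 lists each (exact p = 0.13 and adjusted p = 0.15 for both). Widths differed between these sets, with medians of 1161 and 489 bp in the last 2 against 1523.5 bp in the enhancers. Overlap at the summit is given only against the other common regions. The part of width in the differences from the 2 narrower sets was not tested. With overlap counted at the H3K27ac summit alone the shares were 34.3 and 32.2% in CKp25 and 30.5 and 28.7% in CK for the enhancers, against 11.3 and 10.4% in CKp25 and 9.89 and 9.12% in CK for the other common regions.

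H4K20me1, found over transcribed genes too, overlapped 911 (51.2%) and 971 (54.6%) of the enhancers in CKp25 at 2 and 6 weeks and 955 (53.7%) and 957 (53.8%) in CK. The other common regions had 46.9 and 50.4% in CKp25 and 48.2 and 48.7% in CK, a difference of 4.75 ± 0.635 points in 4 of 4 lists (exact p = 0.13, adjusted p = 0.15). This difference moved with the rule: it was 1.39 points for the enhancers with no H3K4me3 within 1 kb, 13.5 points for those that H3K4me1 covered to at least 50%, and -18.6 points for the 13 that met a -log10 p of 10. Against the common H3K4me3-free regions with incomplete H3K4me1 the difference was 28.8 ± 0.393 points, and against those with H3K27ac in 1 to 3 lists it was 13.6 ± 0.506 points, with the same p-values. Both of these sets were narrower, with median widths of 1161 and 489 bp against 1523.5 bp in the enhancers, and overlap was counted at 1 bp. The part of width in these differences was not tested. Where a peak was present it covered much of the region: the median covered share of an enhancer with a peak was 67.8 to 75.3% for H3K36me3, against 34.7 to 40.4% in the other common regions, and 79.4 to 86.6% for H4K20me1, against 64.6 to 70.9%.

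The silencing marks were rare. H3K27me3 overlapped 12 (0.674%) and 40 (2.25%) of the enhancers in CKp25 at 2 and 6 weeks and 19 (1.07%) and 18 (1.01%) in CK. The other common regions, most of which carry H3K4me3, had 6.74 and 10.7% in CKp25 and 7.99 and 9.29% in CK, so the enhancers were lower by 7.44 ± 1.15 points in 4 of 4 lists (exact p = 0.13, adjusted p = 0.15). Against the H3K4me3-free regions with H3K27ac in 1 to 3 lists they were lower by 0.534 ± 0.520 points, a difference of the size of its spread (exact p = 0.25). Against the common H3K4me3-free regions with incomplete H3K4me1 they were lower by 0.619 ± 0.502 points in 4 of 4 lists (exact p = 0.13, adjusted p = 0.15). H3K9me3 overlapped 3 and 11 enhancers in CKp25 and 4 and 5 in CK, or 0.323 ± 0.202% of them over the 4 lists (SD), against 1.37 ± 0.319% of the other common regions (difference -1.05 ± 0.180 points, exact p = 0.13, adjusted p = 0.15). It was rare in H3K4me3-free regions at large: the enhancers differed by -0.573 ± 0.212 points from the common ones with incomplete H3K4me1 (lower in 4 of 4 lists, exact p = 0.13, adjusted p = 0.15) and by -0.13 ± 0.105 points from those with H3K27ac in 1 to 3 lists (lower in 3 of 4 lists, exact p = 0.25). In 1717 enhancers H3K27me3 was found in no list, and in 1765 H3K9me3 was found in no list.

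**Figure D4:**
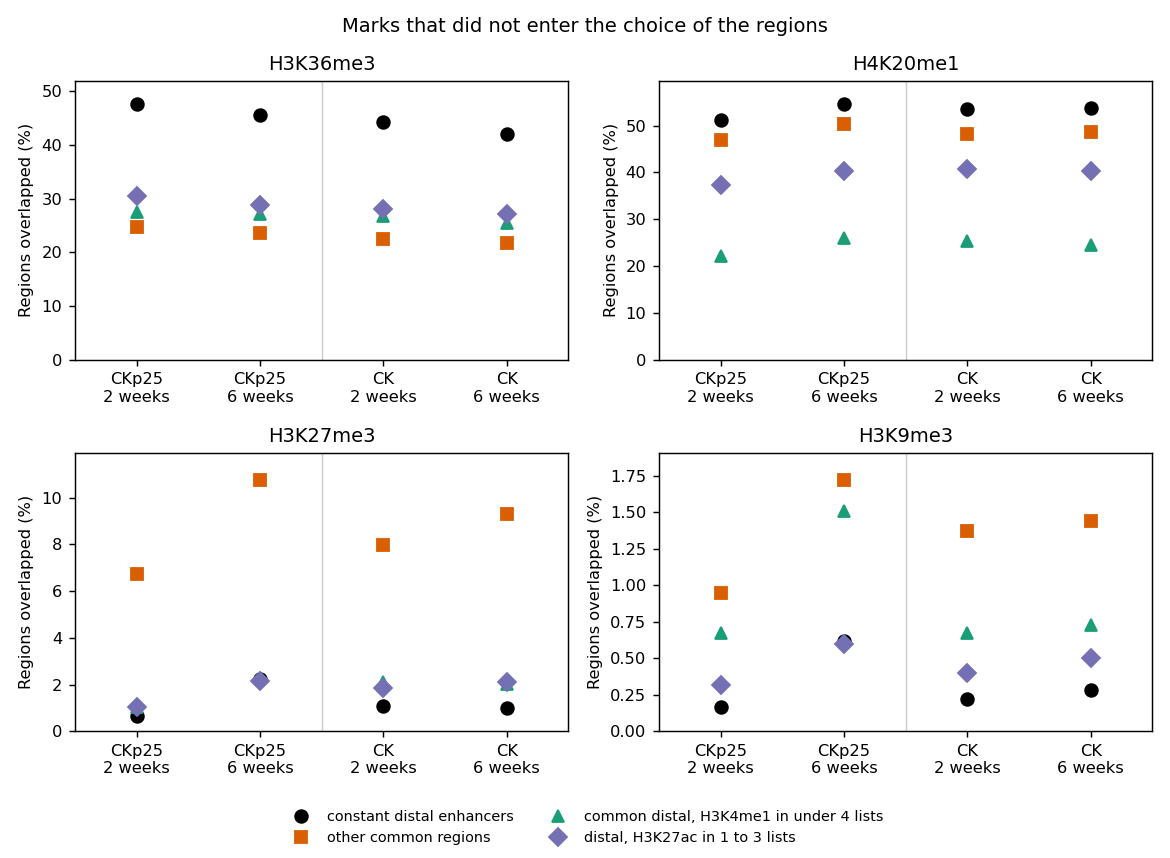
Share of regions overlapped by a peak of each of the 4 marks that did not choose the regions (y axis, %, from 0), in the 4 lists (x axis), for the constant distal enhancers (black) and 3 other sets of H3K27ac regions. In all 4 lists the enhancers are highest for H3K36me3 (42.1 to 47.7%) and H4K20me1 (51.2 to 54.6%) and at or under 2.25% for H3K27me3 and 0.618% for H3K9me3. Overlap is of 1 bp or more, and the sets differ in width.

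By these marks the enhancers included regions under both H3K36me3 and H4K20me1 and regions under neither. H3K36me3 was present in all 4 lists in 623 (35%) and in none in 785 (44.1%). H4K20me1 was present in all 4 lists in 808 (45.4%) and in none in 698 (39.2%). Both were present in all 4 lists in 442 (24.8%, against 13.2% of the other common regions), and none of the 4 marks was found in any list in 492 (27.6%, against 31.8%). The 442 had a median H3K27ac percentile of 20.2 and the 492 without any of the marks one of 24.4. Calls by H3K27ac were at similar shares in both: 21 of the 442 (4.75%) were higher in CKp25 and 38 (8.60%) lower, and 22 of the 492 (4.47%) were higher and 47 (9.55%) lower. The difference between the sets was not tested, since their regions share the same 4 lists.

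Between genotypes, the H3K36me3 share of the enhancers was higher in CKp25 than in CK by 3.31 points at 2 weeks and by 3.60 points at 6 weeks. The 2 CKp25 lists averaged 46.7 ± 1.43% and the 2 CK lists 43.2 ± 1.63% (SD, n = 2 lists each, exact two-sided permutation p = 0.333, the smallest that 2 against 2 lists allow). The 2 lists of a genotype are its 2 times, so the SD holds the time difference. The test ignores the pairing by time and cannot decide the question. The other common regions moved the same way, by 2.09 and 1.801 points. The CKp25 lists of H3K36me3 were longer, with 202563 and 206413 peaks against 187168 and 194046 in CK, and with every list held to the length of the shortest the enhancers differed by 1.12 and 1.29 points and the other common regions by 0.911 and 0.866. H3K36me3 was present in both CKp25 lists and neither CK list at 28 enhancers (1.57%; background 1.22%), and in both CK lists and neither CKp25 list at 7 (0.393%; background 0.402%).

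For the other 3 marks the genotype difference had opposite signs at 2 and 6 weeks, in the enhancers and in the other common regions alike. Peaks in both lists of 1 genotype and in neither of the other were few. For H4K20me1 they were found at 14 enhancers for CKp25 (0.787%; background 0.943%) and at 20 for CK (1.12%; background 0.853%). For H3K27me3 they were found at 5 for CKp25 (0.281%; background 0.34%) and at 2 for CK (0.112%; background 0.395%), and for H3K9me3 at 1 for CKp25 (0.0562%; background 0.0509%) and at 0 for CK (background 0.0902%).

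Among the 28 with H3K36me3 in CKp25 lists alone, the strongest by H3K27ac were chr10:122313838-122315434, with H3K27ac percentiles of 55.7 and 36.8 in CKp25 and 30.5 and 66.4 in CK, and chr15:57650949-57651967, with 44.9 and 57.3 in CKp25 and 36.5 and 6.02 in CK. Those with the mark in CK lists alone were led by chr12:30505830-30509822 and chr15:37350994-37351683. The 2 enhancers with H3K27me3 in CK lists alone were chr2:93056985-93058734 and chr2:165962653-165965478. The strongest with it in CKp25 lists alone were chr4:46702504-46703952 and chr9:120642588-120644967, and the only one with H3K9me3 in CKp25 lists alone was chr10:40230102-40232913. H4K20me1 was gained in this sense at chr11:32521248-32524701 and chr3:126718154-126720152 and lost at chr7:71727808-71729905 and chr16:94718349-94720666. Of these, chr11:32521248-32524701 was lower in CKp25 by H3K27ac (50.8 and 48.5 in CKp25, 69.5 and 71.0 in CK), and so was chr7:71727808-71729905 (44.9 and 7.99 in CKp25, 59.9 and 60.7 in CK).

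RNA of the proteins that write, read and erase enhancer marks was called at shares near or under those of all genes. A list of 36 genes was examined, all of which passed the filter on low counts, with values as log2 fold changes of CKp25 over CK and edgeR's quasi-likelihood test, Benjamini-Hochberg adjusted over 14457 genes. At 2 weeks 5 of the 36 rose (13.9%; background 11.6% of all genes) and 1 fell (2.78%; background 7.99%). At 6 weeks 4 rose (11.1%; background 18.1%) and 5 fell (13.9%; background 15.2%). The count of 5 became 2 without CK_6wk_3938 and 8 without CK_6wk_4009, and the count of 1 became 0 without CKp25_2wk_4890, CKp25_2wk_4894, CK_2wk_4520 or CK_2wk_4893. The median fold change of the list was 0.06 at 2 weeks and -0.02 at 6 weeks, against -0.01 and 0.00 for all genes tested.

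The main H3K27 acetyltransferases did not pass the test. Ep300 averaged 129 ± 14.0 CPM in CKp25 and 134 ± 12.8 CPM in CK at 2 weeks, and 134 ± 6.41 CPM in CKp25 and 144 ± 11.1 CPM in CK at 6 weeks (SD, n = 3 libraries; log2 fold changes -0.06 and -0.11, edgeR adjusted p = 0.717 and 0.396). Crebbp differed by -0.01 and -0.18 (edgeR adjusted p = 0.966 and 0.0701), and at 6 weeks it passed without CK_6wk_4009 (-0.25, adjusted p = 0.0271) or CKp25_2wk_4518 (-0.19, adjusted p = 0.0444). Kat2b, another acetyltransferase of the list, rose at 6 weeks, with 45.3 ± 4.48 CPM in CKp25 and 28.2 ± 0.821 CPM in CK (0.68 ± 0.12 SE, edgeR adjusted p = 0.000306). Of the H3K4 monomethyltransferases, Kmt2d fell at 6 weeks, with 237 ± 8.83 CPM in CKp25 and 332 ± 58.7 CPM in CK (-0.48 ± 0.13 SE, adjusted p = 0.00754), and without CK_6wk_3938 it no longer passed (-0.33, adjusted p = 0.0549). Kmt2c did not pass at either time (-0.09 and -0.15, adjusted p = 0.591 and 0.236). Paxip1, a subunit of their complexes, rose at 2 weeks (0.44, adjusted p = 0.0029).

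Among the looping factors, the cohesin subunits Smc1a, Smc3 and Rad21 rose at 2 weeks (0.48, 0.27 and 0.37 log2, edgeR adjusted p = 0.000597, 0.00868 and 0.00353). At 6 weeks Rad21 (0.33, adjusted p = 0.0047) and Stag2 (0.26, adjusted p = 0.0269) rose, and the call of Stag2 was lost without CKp25_6wk_3937, CKp25_6wk_4008, CK_6wk_3936 or CK_6wk_4009. The corepressor Ncor1 was lower at both times (-0.25 and -0.31, adjusted p = 0.0236 and 0.00357), but its call at 2 weeks was lost on leaving out any of 4 libraries, CKp25_2wk_4890, CKp25_2wk_4894, CK_2wk_4520 and CK_2wk_4893. The deacetylase Hdac2 was lower at 6 weeks (-0.25, adjusted p = 0.0406), a call that DESeq2 did not make (adjusted p = 0.11) and that was lost on leaving out any 1 library of the 6-week groups other than CKp25_6wk_4008. Of the chromatin remodellers, Chd7 rose at both times (0.46 and 0.60, adjusted p = 0.0082 and 0.000587), and Smarca2 and Arid1b fell at 6 weeks (-0.34 and -0.28, adjusted p = 0.00684 and 0.0117), the call of Arid1b being lost without CK_6wk_3938. None of the 36 effects differed between 6 and 2 weeks at an adjusted p under 0.05 by edgeR. The libraries also differed technically. At 6 weeks 11.5 to 13.9% of the reads of CKp25 libraries aligned to several places, against 6.86 to 9.52% in CK libraries, and at 2 weeks CKp25_2wk_4518 (6.81%) and CK_2wk_4520 (7.15%) lay below the other 4 libraries (12.2 to 14.3%). Without CKp25_2wk_4518 the counts at 2 weeks were again 5 higher and 1 lower, and without CK_2wk_4520 they were 6 higher and 0 lower. A fit with a term for these 2 libraries called 6 genes higher and 1 lower at 2 weeks and 4 higher and 6 lower at 6 weeks, the additions being Kat2b at 2 weeks (0.34, edgeR adjusted p = 0.0295) and Crebbp at 6 weeks (-0.18, edgeR adjusted p = 0.0461). At 6 weeks the read shares of CKp25 and CK libraries did not overlap, so there they cannot be told apart from genotype. The part of these read shares in the RNA values was not tested. These libraries are the ones in which glial markers rose and excitatory neuron markers fell, and the part of that change in these values was not tested.

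**Figure D5:**
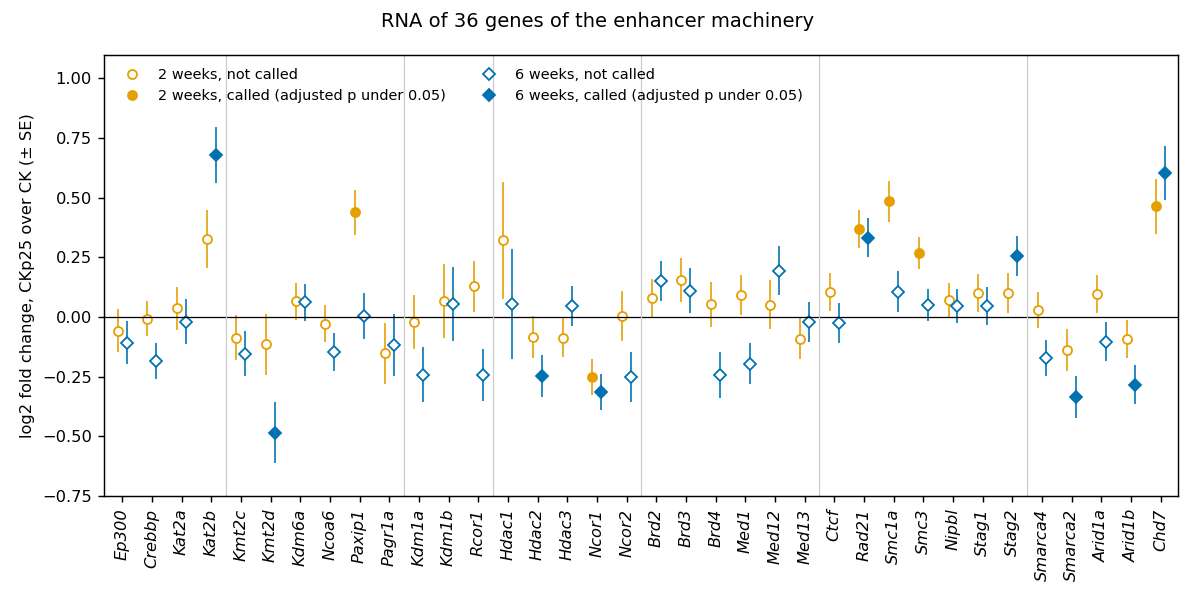
RNA log2 fold change of CKp25 over CK (y axis, ± SE, 3 libraries per group) for 36 genes of the enhancer machinery, grouped by role with grey lines between roles; circles are 2 weeks, diamonds 6 weeks, filled symbols passed an edgeR adjusted p under 0.05. Most genes lie within 0.25 of 0, and the furthest from it is Kat2b at 6 weeks (0.68).

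The -log10 p of 5 cut through a continuum of weak peaks. Just inside, chr4:141509957-141511972 and chr19:10841824-10842771 had their lowest H3K27ac value, 5.00 and 5.01, in CK at 6 weeks, and chr4:137260206-137261755 and chr3:126731105-126732533 a lowest H3K4me1 value of 5.00 in the same group. Just outside for H3K27ac were chr1:196581748-196582931 and chr2:49605184-49606130, with a lowest value of 4.99 in CK at 2 weeks for the first and in CK at 6 weeks for the second. Just outside for H3K4me1 was chr8:126241574-126242623 with 4.99, together with chr7:147063199-147064233, whose H3K4me1 value fell short of the threshold in CK at 6 weeks alone.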

How the data were processed

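Peak lists were deposited by the authors as 1 list per mark and group. Their fold enrichment over the whole cell extract, a ratio, and the −log10 of each peak's p-value are the authors' deposited values and were used to choose and rank regions within a list. For RNA the authors deposited unnormalized counts of reads for each Ensembl gene in 12 libraries. Bowtie, Picard, HTSeq 0.6.1 and MACS2, with builds NCBIM37 and mm9, are named per the submitters' processing notes. Coordinates are mm9, 1-based; no sequence or gene is given at a region, as no genome of that build was used.

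Peaks were merged where they overlapped or touched. Overlap was 1 bp unless stated. Shares of other marks were compared over the 4 lists with exact permutation tests. Overlaps, coverage and calls were checked against bedtools 2.31.1 and known answers, and the RNA fit was tested on simulated data. Of the deposited RNA reads, the 5 closing entries that name no gene (38.1 to 46.9% outside features, 6.13 to 11.1% unaligned, 6.81 to 14.3% with several alignments) were left out. The ID table named 32919 of 37991 genes. The remaining counts were fitted in R 4.3.3 with edgeR 4.0.16 (filterByExpr, TMM, glmQLFit with 4 group means over 12 libraries), and DESeq2 1.42.0 was an alternative. CPM were computed from these deposited counts over TMM-scaled library sizes. Libraries of a group differed by more than counting noise (chi-square per gene of 1.46 to 8.55), but the labels do not call them animals; their spread, on which every RNA p-value rests, may be technical. No source used here gives the strand setting of the counting.

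Regions named are the 6 strongest, the 6 widest rises and falls by H3K27ac and 3 each by H3K4me1, the 2 strongest that gained or lost each other mark, the 3 largest groups and those next to each threshold, leaving out chromosome 18. Genes named are those of the list called at either time and Ep300, Crebbp, Kmt2c and Kmt2d. The regions, lists and tests were chosen with earlier results of these data known.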

Additional observations from a re-analysis of the deposited data

Results flagged for a closer look

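The genotype difference in the share of constant enhancers under 3 marks had opposite signs at 2 and 6 weeks, which drew attention to it. For H3K27me3 it was -0.393 percentage points (CKp25 minus CK) at 2 weeks and 1.24 points at 6 weeks. For H3K9me3 it was -0.0562 points at 2 weeks and 0.337 points at 6 weeks. For H4K20me1 it was -2.47 points at 2 weeks and 0.787 points at 6 weeks. The other common regions changed sign in the same way. Their differences at 2 and 6 weeks were -1.25 and 1.46 points for H3K27me3 and -0.422 and 0.280 points for H3K9me3. For H4K20me1 they were -1.25 and 1.68 points. The difference between the times was not tested, as each group has 1 list per mark. The CKp25 list was the shorter at 2 weeks, with 76621 H3K27me3 peaks in CKp25 and 115841 in CK, 70236 H3K9me3 peaks in CKp25 and 90930 in CK, and 237443 H4K20me1 peaks in CKp25 and 269327 in CK. It was also the shorter at 6 weeks, where the CKp25 shares were the higher, with 104196 H3K27me3 peaks in CKp25 and 119727 in CK, 91321 H3K9me3 peaks in CKp25 and 92790 in CK, and 254665 H4K20me1 peaks in CKp25 and 257468 in CK. With all lists of a mark held to equal length the enhancers differed at 2 weeks by -0.281 points for H3K27me3. For both H3K9me3 and H4K20me1 the value at 2 weeks was 0 points. At 6 weeks the values were 1.12, 0.337 and 0.506 points for the same 3 marks. The other common regions then differed by 0.292, -0.188 and 0.943 points at 2 weeks and by 1.68, 0.260 and 1.86 points at 6 weeks.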

How the results depend on the processing

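The number of constant enhancers depended on the rule. A minimum -log10 p of 10 left 13 regions. Of these, 2 (15.4%) were called higher and 2 (15.4%) lower in CKp25 by H3K27ac, and 0 higher and 1 (7.69%) lower by H3K4me1. A background for this rule is not given here. The H4K20me1 difference from the other common regions reversed to -18.6 points. Requiring H3K4me1 to cover 50% of a region left 668, with 44 higher (6.59%) and 47 lower (7.04%) by H3K27ac. By H3K4me1, 60 were higher (8.98%) and 59 lower (8.83%). Counting only H3K4me3 peaks of at least 5 gave 3195, with 194 higher (6.07%) and 237 lower (7.42%) by H3K27ac. By H3K4me1, 262 were higher (8.20%) and 331 lower (10.4%). Barring H3K4me3 closer than 1 kb, which keeps the region at exactly that distance, left 1079. By H3K27ac 58 were higher (5.38%) and 94 lower (8.71%), and by H3K4me1 78 were higher (7.23%) and 103 lower (9.55%). The H3K4me1 cover rule and the H3K4me3 rules leave the common regions unchanged, with an H3K27ac background of 5.75% higher and 5.66% lower. For the H3K4me3 rules the H3K4me1 background was 8.94% higher and 8.62% lower. Fewer or more regions by construction move these counts; other causes were not tested. Ranks among the enhancers alone give every list the same mean and so bear on no shift of the whole set. They gave 190 called higher (10.7%) and 197 lower (11.1%) by H3K27ac. By H3K4me1 they gave 186 higher (10.4%) and 192 lower (10.8%). Such ranks have no background among other regions. Apart from that reversal the share differences from the other common regions kept their direction but not their size, over -8.11 to -3.22 points for H3K27me3, 18.3 to 22.1 for H3K36me3, -1.64 to -0.273 for H3K9me3 and 1.39 to 13.5 for H4K20me1; these include overlap at the summit, chosen after seeing the data. For RNA, leaving out 1 library at a time gave 5 to 6 genes of the list higher and 0 to 1 lower at 2 weeks, and 3 to 4 higher and 2 to 8 lower at 6 weeks. Among genes named, Crebbp at 2 weeks reversed to 0.000768 with DESeq2's size factors and Paxip1 at 6 weeks to -0.00332 with no filter on low counts, and leaving out 1 library gave -0.0633 to 0.0298 for Crebbp and -0.146 to 0.0215 for Ep300 at 2 weeks and -0.0569 to 0.0396 for Paxip1 at 6 weeks. Hdac2 at 6 weeks no longer passed with no filter (edgeR adjusted p = 0.0622). No paired analysis was possible because the labels give the groups no shared replicate numbers; the term for 2 libraries at 2 weeks, set from read alignment after seeing the data, moved no count of genes by over 1.5 times. Read depth of the peak lists is unknown, and the coarse steps of the fold values limit how finely ranks can be told apart.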
